A study of Mus musculus with 30 samples.

Results

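The genes of the cell cycle and DNA replication described here are 49 protein-coding mouse genes, of 45317 gene symbols counted in the series. They were taken from a fixed list of proliferation genes, and every listed gene had a row in the count table. By their textbook roles, 17 of them act in S phase, 22 act in mitosis, and the other 10 are D-type and E-type cyclins, transcription factors, the chromatin protein Hmgb2 and the microtubule protein Stmn1. RNA sequencing was carried out on 8 populations of monocytes and macrophages sorted from mice that carried the GL261.BpalmGFP glioma. GL261 is a mouse glioma line, and its cells here anchored GFP in their membranes, so that GFP in a sorted myeloid cell (GFPpos against GFPneg) marked material taken over from the tumor. All mice were C57BL6.CCR2RFP/WT, adult and 12 to 18 weeks old, and had 1 Ccr2 allele replaced by a red fluorescent reporter, in blood and brain alike. No treatment other than the tumor is given, and no mouse without a tumor was analysed here.

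Blood gave Ly6Chigh monocytes and Ly6Clow monocytes, each from mice 22, 23 and 24. The tumor-bearing brain gave glioma monocytes from mice 22, 24 and 26, and CCR2high macrophages and CCR2low macrophages from mice 22, 23, 24 and 26, each of these as a GFPneg and a GFPpos fraction. A replicate is 1 population of 1 mouse, and the values of replicates are given below in the order of these mouse numbers. Blood monocytes had been sorted on CD45, CD115, lack of CD11c and level of Ly6C, and brain cells on high CD45 and high CD11b followed by F4/80, Ly6C and CCR2. The labels name brain as the tissue of all samples, the blood monocytes included.

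A cell that divides copies its DNA in S phase and separates the copies in mitosis. D-type cyclins and E-type cyclins carry the cell through G1, the MCM proteins open DNA at replication origins, Pcna clamps polymerases onto it, and Rrm1, Rrm2, Tyms and Tk1 supply nucleotides. Cdk1 with cyclins A and B then drives entry into mitosis, Plk1 and the Aurora kinases direct the spindle, Bub1 and Bub1b hold the checkpoint, and Cdc20 and Ube2c act with the anaphase-promoting complex to end it. Circulating monocytes are known as cells that mostly do not divide, whereas macrophages of several tissues can renew themselves by local division.

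Counts on genes ranged from 1553616 to 5689644 per replicate, so that 3 counts, used below as the floor where a gene had none, corresponded to 0.6 to 2.04 CPM, the count of a gene scaled to a fixed total of counts per library. Levels are given as CPM after TMM scaling, and a call means an adjusted p under 0.05 by the quasi-likelihood test of edgeR, adjusted after Benjamini and Hochberg over 11572 genes, which included all 49 members. The 7 monocyte and macrophage markers were counted in every population, at a summed level of 8330 to 39740 CPM. This sum was 26270 to 39740 CPM in Ly6Chigh and 18530 to 27050 CPM in Ly6Clow monocytes, and 8330 to 22600 CPM in brain. Of 30 libraries, the first of Ly6Clow mouse 23 reached only 3460 genes with 5 or more reads and was left out. The second library of that sample had 6475 such genes and 13.3% spike-in reads and was kept, and results that rest on it are given with and without it. All 36 pairs of replicates of a population differed beyond counting noise (the smallest chi-square divided by its degrees of freedom was 7.71). In bulk samples, more cycling cells and more RNA of these genes per cell cannot be told apart.

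Most of these genes were lower in blood than in the brain populations, and the gap was wider for mitotic than for S-phase members. Ccnd3, Hmgb2 and E2f1, described below, were exceptions. Mitotic members had a median level over members of 0.281 CPM in the 6 blood replicates and of 44.9 CPM in the 22 brain replicates, each member entering by its own median. S-phase members went from 20.8 to 69.1 CPM. In blood, 50.8% of the mitotic values and 15.7% of the S-phase values were at 0 counts, against 0.413% and 0.535% in brain. Without Ly6Clow mouse 23, the poorest kept library, the blood shares were 42.7% and 9.41%. For 17 of the 49 members every brain replicate lay above every blood replicate, which held for 4.73% of all genes tested. No member lay the other way round, against 1.60% of all genes. Without Ly6Clow mouse 23 the counts were 20 (5.50% of all genes), with Mcm3, Pcna and Tyms added, and 1 (2.90%), which was Ccnd3. The 17 comprised 11 of 22 mitotic members (Cdk1, Ccna2, Ccnb2, Aurka, Plk1, Bub1, Birc5, Ube2c, Cenpe, Nusap1 and Top2a), 3 of 17 S-phase members (Mcm2, Rrm2 and Uhrf1), and Ccnd1, Ccne1 and Stmn1. For Ccne1 the lowest brain and the highest blood replicate each held 1 count (0.631 and 0.562 CPM). Its separation there is one of library size, under the floor of 3 counts. Other separations were narrow in counts as well. The lowest brain and the highest blood replicate held 6 and 6 counts of Cenpe and 17 and 19 of Plk1. For Ccna2 they held 4 and 2 counts and for Bub1 3 and 0.

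As a description per replicate, the mean log2 CPM (with a prior count of 2) was taken over the S-phase and over the mitotic members. S-phase means were 3.11 ± 0.25 (SD, n = 3) in Ly6Chigh and 3.41 ± 1.18 (n = 3) in Ly6Clow monocytes, 5.12 ± 0.52 (n = 3) in GFPneg and 5.93 ± 0.33 (n = 3) in GFPpos glioma monocytes. In macrophages they lay between 5.94 ± 0.11 (n = 4) in CCR2high GFPneg and 6.34 ± 0.03 (n = 4) in CCR2low GFPpos cells. Mitotic means were 0.62 ± 0.33 and 0.77 ± 1.10 in Ly6Chigh and Ly6Clow monocytes, 4.11 ± 1.20 and 4.85 ± 1.13 in GFPneg and GFPpos glioma monocytes, and from 5.15 ± 0.53 to 5.73 ± 0.49 in macrophages. The S-phase mean thus exceeded the mitotic mean by 2.49 ± 0.16 (n = 3) in Ly6Chigh and 2.64 ± 0.22 (n = 3) in Ly6Clow monocytes, and by 0.61 to 1.08 on average in the brain populations. The size of this gap moved with the prior count, and no test was made of it.

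**Figure D1:**
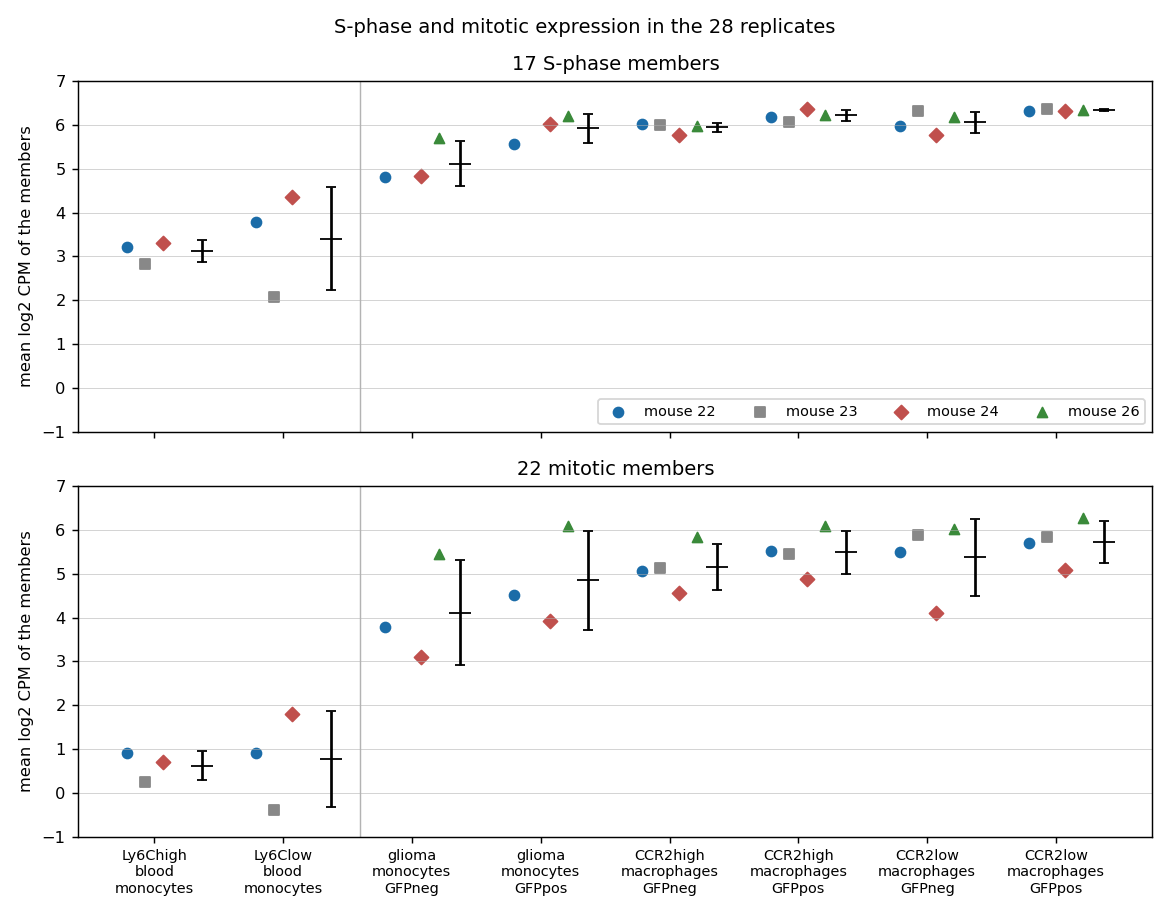
Mean log2 CPM of the 17 S-phase members (top) and the 22 mitotic members (bottom) in each replicate of the 8 populations, with symbols for the mice and a bar for the mean ± SD. Mitotic means were 0.62 in Ly6Chigh and 0.77 in Ly6Clow blood monocytes and from 4.11 to 5.73 in the brain populations.

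Against Ly6Chigh monocytes, the blood population that enters tissue, 33 members were called higher and 1 lower in GFPneg glioma monocytes, where 11.1% of all genes were called higher and 2.68% lower. In GFPneg CCR2high macrophages 41 members were called higher and 1 lower, with 12.7% and 5.12% of all genes. In GFPneg CCR2low macrophages 41 were called higher and 1 lower, with 14.2% and 6.07% of all genes. Of the S-phase members 11, 15 and 15 of 17 were called higher in the 3 comparisons, and of the mitotic members 17, 19 and 19 of 22. These 3 comparisons share the same Ly6Chigh replicates.

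Fitted log2 fold changes had a median of 1.66, 2.27 and 2.43 over the S-phase members in glioma monocytes, CCR2high and CCR2low macrophages. Over the mitotic members the medians were 5.4, 6.32 and 6.76, or 4.64, 5.22 and 5.84 with the 4 genes that were at 0 in Ly6Chigh monocytes set to their lower bounds. Other mitotic members held few counts over the Ly6Chigh replicates, such as Ccnb1 and Prc1 with 1 and Cdk1, Ccna2, Ccnb2 and Cenpf with 3. Both sets of mitotic medians thus rest on counts near the floor. All genes tested had medians of 0.12, 0.15 and 0.18. With scaling to the spike-ins in place of TMM, the called members fell to 14, 19 and 19, all of them higher, where 3.15%, 3.78% and 4.11% of all genes were called higher. Mcm4, Cdt1, Aurkb, Bub1b, Kif23, E2f1 and Hmgb2 were called in none of the 3 comparisons, and Mcm5, Mcm7, Gins2, Pold2, Aurka, Mki67, Ccne2 and Mybl2 in both macrophage comparisons but not in that of glioma monocytes.

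**Figure D2:**
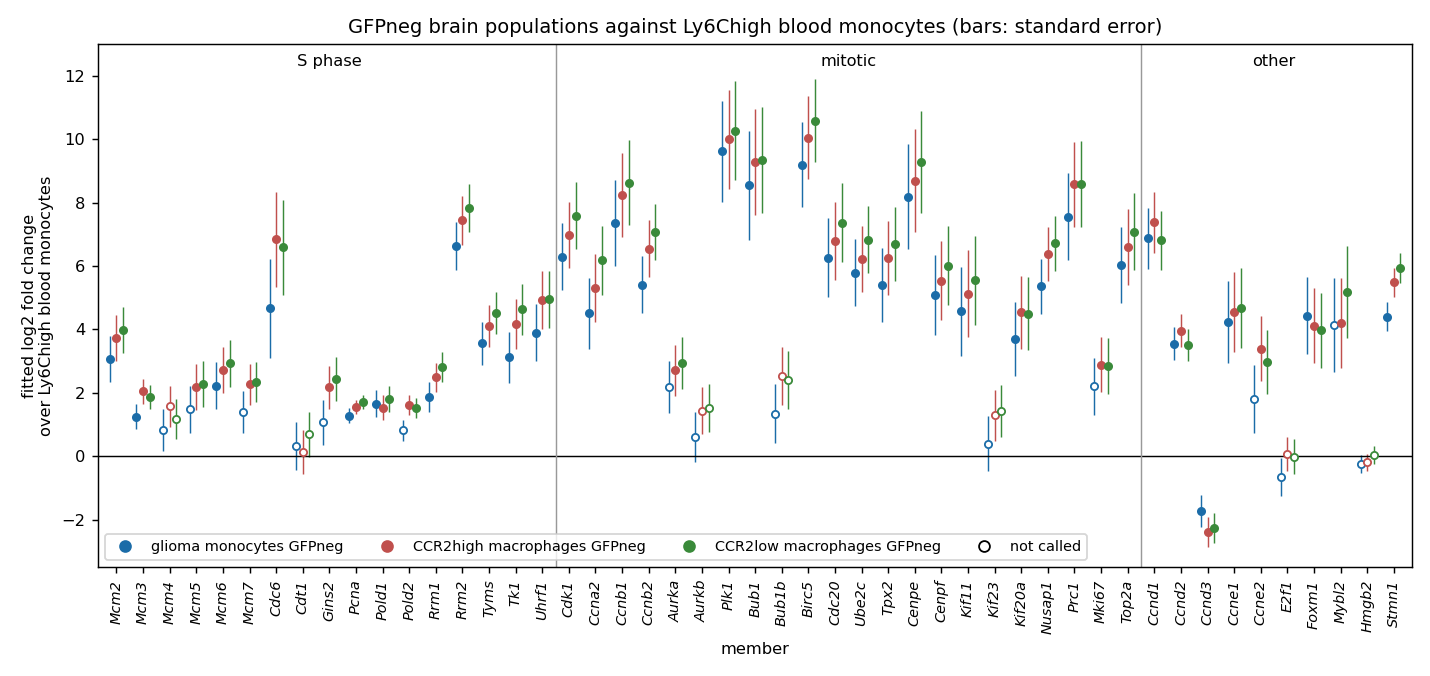
Fitted log2 fold change of each of the 49 members in 3 GFPneg brain populations over Ly6Chigh blood monocytes, with bars for the standard error and open symbols where the adjusted p was not under 0.05. Medians were 1.66 to 2.43 for S-phase and 5.4 to 6.76 for mitotic members, and Ccnd3 lay below 0 in each. The values of Plk1, Bub1, Birc5 and Cenpe, at 0 in Ly6Chigh monocytes, depend on the prior count and are no bounds. Those of other mitotic members rest on few counts there, such as 1 for Ccnb1 and Prc1 and 3 for Cdk1.

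Among S-phase members, the replicative clamp Pcna (chr2:132249162-132253314, GRCm38) was well counted in all blood samples. It stood at 41.0, 35.7 and 34.5 CPM in Ly6Chigh and at 65.6, 94.1 and 69.0 CPM in Ly6Clow monocytes. Glioma monocytes had 74.2, 109 and 85.8 CPM in the GFPneg and 121, 124 and 104 CPM in the GFPpos fraction. CCR2high macrophages had 117, 100.3, 100.4 and 117 CPM (GFPneg) and 133, 109, 146 and 100.3 CPM (GFPpos), and CCR2low macrophages had 103, 144, 126 and 110.3 CPM and 132, 123, 106 and 124 CPM. Every brain replicate lay above every Ly6Chigh replicate. Of the Ly6Clow replicates only mouse 23, of the poorest kept library, reached into the range of glioma monocytes, and the others lay below every brain replicate. Over Ly6Chigh monocytes, Pcna rose by a log2 fold change of 1.28 (SE 0.23, adjusted p = 0.000327) in glioma monocytes, 1.55 (SE 0.22, adjusted p = 1.36e-05) in CCR2high and 1.71 (SE 0.22, adjusted p = 3.53e-06) in CCR2low macrophages by edgeR. With scaling to the spike-ins these calls were lost (log2 fold change 1.11, 1.57 and 1.52, adjusted p = 0.853, 0.42 and 0.421 by edgeR).

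Mcm2 and Mcm3 are subunits of the replicative helicase. Mcm2 (chr6:88883474-88898780) had 5.05, 0.586 and 10.7 CPM in Ly6Chigh and 35.4, 0.386 and 34.9 CPM in Ly6Clow monocytes, 38.1, 43.9 and 67.8 CPM in GFPneg and 46.3, 106 and 120.5 CPM in GFPpos glioma monocytes. In macrophages it had 87.1, 80.2, 68.1 and 82.4 CPM (CCR2high GFPneg), 105, 107, 135 and 149.5 CPM (CCR2high GFPpos), 68.8, 101, 112 and 93.4 CPM (CCR2low GFPneg) and 85.7, 108, 122 and 110.4 CPM (CCR2low GFPpos). The lowest brain replicate of Mcm2 exceeded the highest blood replicate by a small margin, and its log2 fold change over Ly6Chigh monocytes was 3.07 (SE 0.73, adjusted p = 0.0046), 3.74 (SE 0.73, adjusted p = 0.0005) and 3.98 (SE 0.73, adjusted p = 0.000244) in the order used above.

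Mcm3 (chr1:20802968-20820312) was better kept in blood, at 47.7, 39.8 and 32.4 CPM in Ly6Chigh and 57.5, 261 and 62.7 CPM in Ly6Clow monocytes. In glioma monocytes it had 81.8, 72.3 and 129.7 CPM (GFPneg) and 139, 178 and 100.2 CPM (GFPpos). In macrophages it had 162, 182, 130.3 and 181 CPM (CCR2high GFPneg), 203, 154, 208 and 224 CPM (CCR2high GFPpos), 171, 110.4, 135 and 168 CPM (CCR2low GFPneg) and 187, 243, 214 and 195 CPM (CCR2low GFPpos). The value of Ly6Clow mouse 23 was higher than that of every brain replicate, in the library with the fewest genes, and without it the blood values would lie below all of them. Its log2 fold changes over Ly6Chigh monocytes, 1.25 (SE 0.40, adjusted p = 0.0361), 2.04 (SE 0.39, adjusted p = 0.000408) and 1.87 (SE 0.39, adjusted p = 0.000851), were smaller than those of Mcm2.

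Rrm2 (chr12:24708241-24714146), the regulated small subunit of ribonucleotide reductase, had 0, 0 and 0.627 CPM in Ly6Chigh and 2.36, 0.386 and 10.1 CPM in Ly6Clow monocytes. Glioma monocytes had 35.6, 23.6 and 52.9 CPM (GFPneg) and 30.6, 38.1 and 57.1 CPM (GFPpos). Macrophages had 70.0, 61.4, 68.1 and 62.7 CPM (CCR2high GFPneg), 86.1, 65.0, 80.1 and 79.4 CPM (CCR2high GFPpos), 83.7, 108, 61.5 and 89.7 CPM (CCR2low GFPneg) and 95, 105, 98.9 and 92.1 CPM (CCR2low GFPpos). Rrm2 showed no overlap between blood and brain, and the 3 Ly6Chigh replicates together held only 3 counts. Relative to those, the count ratio was 100.4 (95% interval 33.8 to 490.9) in glioma monocytes, 176 (60.1 to 856) in CCR2high and 248 (84.7 to 1207) in CCR2low macrophages. Intervals on counts cover counting error only, since the libraries carried no molecular identifiers. Among S-phase members Rrm2 had the smallest adjusted p in all 3 comparisons (7.4e-07, 8.37e-08 and 4.1e-08 by edgeR with Benjamini-Hochberg adjustment).

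Its partner Rrm1, the large subunit, was well expressed in blood already, at 31.4, 12.9 and 15.7 CPM in Ly6Chigh and 38.7, 142 and 58.3 CPM in Ly6Clow monocytes, and ran from 41.8 to 211 CPM in brain (median 111, n = 22). Tyms, which makes thymidylate, went from 2.09 ± 1.63 CPM (SD, n = 3) in Ly6Chigh monocytes to 27.9 ± 4.55 (n = 3), 41.1 ± 4.15 (n = 4) and 54.4 ± 8.06 CPM (n = 4) in the 3 GFPneg brain populations. Mcm6 ran from 13.2 to 260.2 CPM in brain (median 168), its lowest value belonging to GFPpos glioma monocytes of mouse 22, against 26.4, 21.1 and 23.8 CPM in Ly6Chigh and 51.9, 0.386 and 58.6 CPM in Ly6Clow monocytes. Tyms had 9.43, 32.8 and 1.18 CPM in Ly6Clow monocytes, where mouse 23, of the poorest kept library, reached into the brain range of 23.1 to 68.4 CPM. These genes differed in how much of their brain level Ly6Chigh monocytes held, with Rrm2 and Tyms near 0 and Rrm1, Mcm3 and Mcm6 counted in every replicate.

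The small polymerase delta subunit Pold2 had 24.7, 19.3 and 15.1 CPM in Ly6Chigh and 28.3, 38.2 and 24.6 CPM in Ly6Clow monocytes and 17.1 to 104 CPM in brain (median 60.5). Uhrf1, which keeps DNA methylation through replication, had 1.69, 0 and 2.51 CPM in Ly6Chigh and 0, 0 and 2.37 CPM in Ly6Clow monocytes and 12.0 to 108 CPM in brain (median 46.7). Cdt1, which loads the helicase in G1, was the S-phase member with the smallest fitted differences, with 22.7 ± 3.41 CPM (n = 3) in Ly6Chigh monocytes and 28.4 ± 17.1 (n = 3), 24.6 ± 5.75 (n = 4) and 36.5 ± 5.25 CPM (n = 4) in the GFPneg brain populations. Its adjusted p lay between 0.57 and 0.937 by edgeR.

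Among mitotic members, the master kinase Cdk1 (chr10:69335146-69352938) had 1.69, 0 and 0 CPM in Ly6Chigh and 2.83, 0 and 2.66 CPM in Ly6Clow monocytes. Glioma monocytes had 24.6, 9.10 and 72.9 CPM (GFPneg) and 68.1, 25.2 and 170.5 CPM (GFPpos). Macrophages had 53.6, 51.3, 32.3 and 87.6 CPM (CCR2high GFPneg), 66.3, 77.2, 93.4 and 91.0 CPM (CCR2high GFPpos), 55.6, 129.5, 68.5 and 90.2 CPM (CCR2low GFPneg) and 87.6, 146, 67.6 and 126 CPM (CCR2low GFPpos). Every brain replicate was above every blood replicate, although brain replicates differed among themselves by far more than those of Pcna. With 3 counts over the Ly6Chigh replicates, the count ratio was 91.2 (95% interval 30.7 to 446) in glioma monocytes, 168 (57.2 to 815) in CCR2high and 264 (90.1 to 1283) in CCR2low macrophages, and the adjusted p was 0.000129, 2.38e-05 and 7.46e-06 by edgeR with Benjamini-Hochberg adjustment.

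Its partner cyclin Ccnb1 (chr13:100778650-100786570) had 0.562, 0 and 0 CPM in Ly6Chigh and 9.91, 0 and 7.40 CPM in Ly6Clow monocytes. Glioma monocytes had 17.6, 10.2 and 56.8 CPM (GFPneg) and 38.3, 21.8 and 92.4 CPM (GFPpos). Macrophages had 36.0, 52.9, 21.6 and 95.9 CPM (CCR2high GFPneg), 68.8, 74.2, 71.7 and 88.5 CPM (CCR2high GFPpos), 58.4, 109, 9.72 and 93.9 CPM (CCR2low GFPneg) and 70.7, 109, 45.1 and 106 CPM (CCR2low GFPpos). Blood and brain overlapped here, because the GFPneg CCR2low replicate of mouse 24 fell just under the Ly6Clow replicate of mouse 22. The Ly6Chigh replicates held 1 count of Ccnb1, for a count ratio of 217 (95% interval 38.3 to 8632), 499 (89.4 to 19750) and 628 (112 to 24840) in the 3 comparisons, with an adjusted p of 0.000389, 6e-05 and 3.23e-05 by edgeR.

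Top2a (chr11:98992943-99024189), the topoisomerase that untangles sister chromatids, had 3.37, 0 and 0 CPM in Ly6Chigh and 0.472, 0 and 6.51 CPM in Ly6Clow monocytes. Glioma monocytes had 39.6, 19.3 and 117 CPM (GFPneg) and 37.3, 77.6 and 214 CPM (GFPpos). Macrophages had 71.9, 87.8, 50.9 and 139 CPM (CCR2high GFPneg), 85.5, 102, 30.1 and 204 CPM (CCR2high GFPpos), 85.4, 168, 45.3 and 188 CPM (CCR2low GFPneg) and 153, 132, 91.4 and 235 CPM (CCR2low GFPpos). No brain replicate reached down to blood, and in each brain population mouse 26 had the highest value. Over Ly6Chigh monocytes the log2 fold change of Top2a was 6.03 (SE 1.21, adjusted p = 0.000934), 6.61 (SE 1.20, adjusted p = 0.000234) and 7.08 (SE 1.21, adjusted p = 0.000104) in glioma monocytes, CCR2high and CCR2low macrophages by edgeR.

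Ube2c (chr2:164769898-164778822), the ubiquitin-conjugating enzyme of the anaphase-promoting complex, had 2.81, 0 and 0.209 CPM in Ly6Chigh and 6.6, 0 and 3.85 CPM in Ly6Clow monocytes. Glioma monocytes had 39.1, 16.1 and 89.0 CPM (GFPneg) and 38.5, 16.3 and 157 CPM (GFPpos). Macrophages had 46.7, 66.6, 39.7 and 102 CPM (CCR2high GFPneg), 80.5, 102, 59.6 and 111 CPM (CCR2high GFPpos), 78.8, 153, 51.4 and 108 CPM (CCR2low GFPneg) and 102, 154, 80.5 and 136 CPM (CCR2low GFPpos). The 2 compartments did not overlap for Ube2c, and its log2 fold changes were 5.79 (SE 1.05, adjusted p = 0.000316), 6.21 (SE 1.04, adjusted p = 9.14e-05) and 6.82 (SE 1.06, adjusted p = 3.16e-05).

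Mki67 (chr7:135689784-135716361), whose protein Ki-67 coats mitotic chromosomes and is the usual stain for cycling cells, was not among the members with the clearest change. It had 0, 9.37 and 3.55 CPM in Ly6Chigh and 2.36, 1.16 and 3.26 CPM in Ly6Clow monocytes. Glioma monocytes had 12.0, 11.8 and 35.5 CPM (GFPneg) and 28.1, 8.85 and 25.5 CPM (GFPpos). Macrophages had 29.6, 24.3, 12.7 and 59.5 CPM (CCR2high GFPneg), 29.1, 25, 9.04 and 88.7 CPM (CCR2high GFPpos), 35.8, 39.2, 6.01 and 42.2 CPM (CCR2low GFPneg) and 39.3, 22.1, 28.5 and 46.0 CPM (CCR2low GFPpos). The Ly6Chigh replicate of mouse 23 lay above 3 brain replicates, all of mouse 24. Mki67 was called in CCR2high (log2 fold change 2.89, SE 0.88, adjusted p = 0.0224) and CCR2low macrophages (2.85, SE 0.88, adjusted p = 0.0219) but not in glioma monocytes (2.20, SE 0.90, adjusted p = 0.111), which is no test of a difference between these populations.

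The mitotic kinase Plk1, the checkpoint kinase Bub1, the chromosomal passenger Birc5 (survivin) and the kinetochore motor Cenpe had no count in any Ly6Chigh replicate. Against a floor of 3 counts per library, Plk1 was at least 26-fold higher in GFPneg glioma monocytes, at least 33.3-fold in CCR2high and at least 40.5-fold in CCR2low macrophages. The lower bounds in the same order were 12.4-fold, 20.4-fold and 21.4-fold for Bub1, 19.4-fold, 34.9-fold and 50.5-fold for Birc5, and 9.62-fold, 13.4-fold and 20.4-fold for Cenpe. All of these bounds divide the mean of a population by the floor and carry no spread between replicates. In GFPneg glioma monocytes Bub1 had 1.505, 3.75 and 45.2 CPM (3, 7 and 70 counts). Its mean there rests mostly on mouse 26, and mouse 22 was at the floor. Bub1 was at 0 in all 6 blood replicates and had 1.5 to 51.8 CPM in brain.

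Cdc20, which activates the anaphase-promoting complex, had 0, 0 and 0.836 CPM in Ly6Chigh and 1.42, 0 and 7.10 CPM in Ly6Clow monocytes and 5.89 to 168 CPM in brain (median 47.6). The spindle assembly factor Tpx2 had 0, 0 and 0.836 CPM in Ly6Chigh and 7.55, 0 and 0.888 CPM in Ly6Clow monocytes and 1.61 to 75.4 CPM in brain (median 42). Prc1, which bundles microtubules of the midzone, had 0.562, 0 and 0 CPM in Ly6Chigh and 0.472, 0 and 9.18 CPM in Ly6Clow monocytes and 6.48 to 130.3 CPM in brain (median 74.5). Unlike these, the cytokinesis motor Kif23 was counted in all 6 blood replicates, with medians of 9.72 CPM in blood and 18 CPM in brain, and Aurkb had 16.5 ± 8.85 CPM (n = 3) in Ly6Chigh monocytes. Per length of their exons, the mitotic members highest in brain were Cdc20, Ube2c and Ccnb2, with means of 32.8, 31.9 and 28.8 CPM per kb, and Cenpf was lowest at 1.29 CPM per kb.

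**Figure D3:**
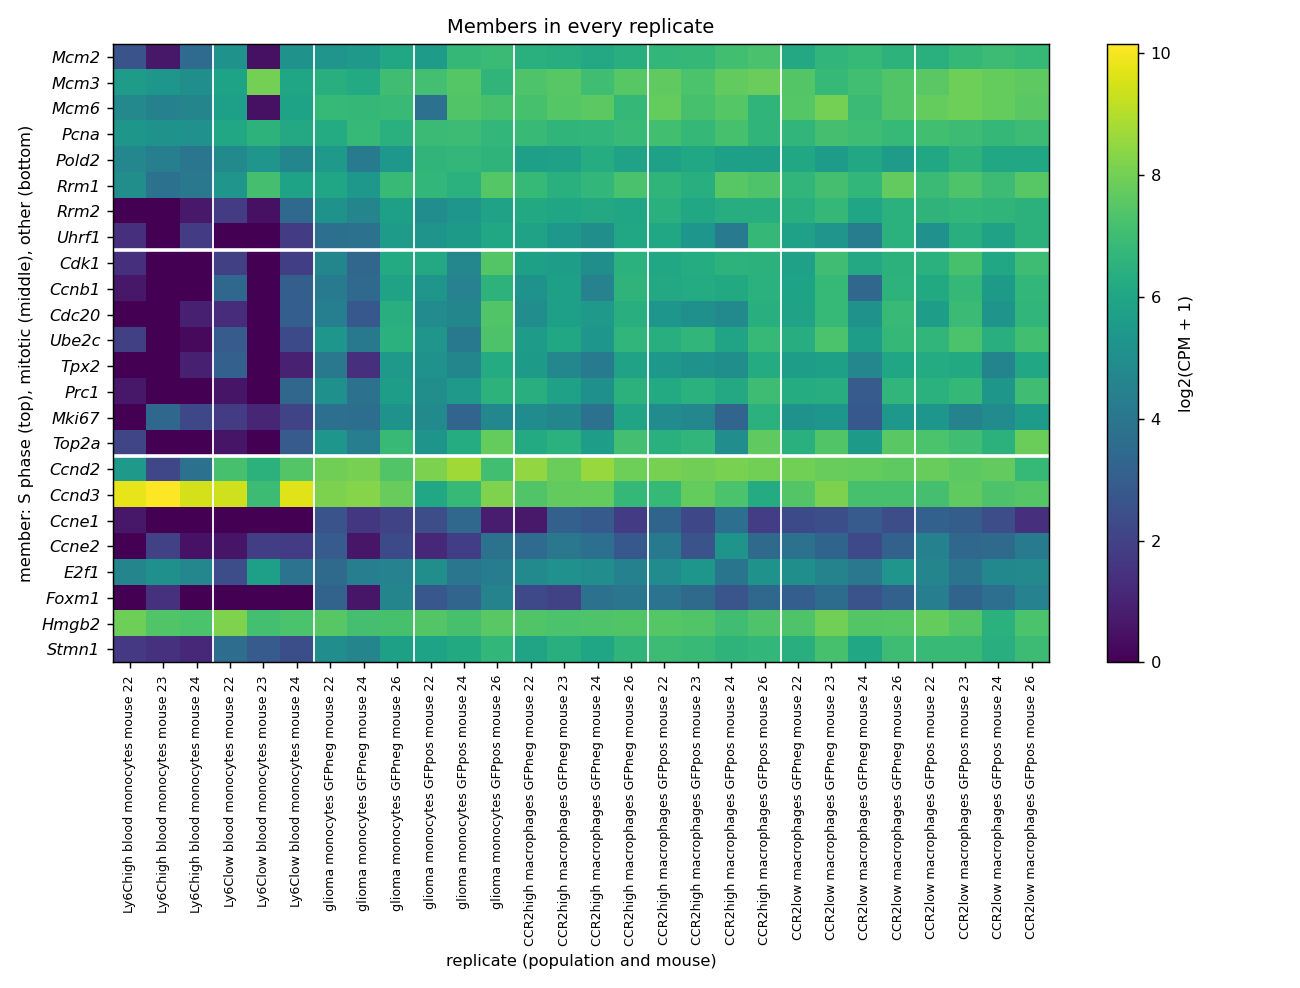
Level of 24 members, as log2(CPM + 1), in each of the 28 replicates, with thick lines between S-phase members, mitotic members and the rest and thin lines between populations. Ly6Chigh and Ly6Clow replicates were dark for most mitotic members, whereas Pcna, Mcm3, Hmgb2 and Ccnd3 were bright in blood.

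Promoters of many mitotic genes are known to carry a cell cycle genes homology region (CHR) and CCAAT boxes, and those of many S-phase genes carry E2F sites. RefSeq promoter windows (GRCm38.p6, 250 bases before to 50 bases after the start) were at hand for 38 of the 49 members, and the letters TTTGAA (CHR), CCAAT, and TTTGGCGC, TTTCGCGC or TTTCCCGC (E2F) were searched on both strands, with overlapping matches allowed. Members with 2 windows (Ccnd3, Mcm7, Pold2, Prc1 and Uhrf1) were counted once, with a match in either window, whereas the share over all promoters is per window. TTTGAA lay in 13 of 18 mitotic promoters (72.2%) and in 2 of 15 S-phase promoters (13.3%), against 17.9% of all 32851 promoters. CCAAT lay in 16 mitotic (88.9%) and 10 S-phase promoters (66.7%), against 37.4%. An E2F word lay in 1 mitotic (5.56%) and 8 S-phase promoters (53.3%), against 1.84%. TTTGAA and CCAAT lay together in 13 of the 18 mitotic promoters and in 6.95% of all promoters. These are matches of letters and not sites. Windows of 2 mitotic and 2 S-phase members, chosen after their matches were known, are printed 5′ to 3′ in the sense of the gene with all matched letters in capitals, because they show the 2 kinds of promoter side by side. Top2a lies at chr11:99024140-99024439 (minus strand), Ube2c at chr2:164769679-164769978 (plus strand), Mcm6 at chr1:128359656-128359955 and Mcm3 at chr1:20820263-20820562 (both minus strand).
Top2a: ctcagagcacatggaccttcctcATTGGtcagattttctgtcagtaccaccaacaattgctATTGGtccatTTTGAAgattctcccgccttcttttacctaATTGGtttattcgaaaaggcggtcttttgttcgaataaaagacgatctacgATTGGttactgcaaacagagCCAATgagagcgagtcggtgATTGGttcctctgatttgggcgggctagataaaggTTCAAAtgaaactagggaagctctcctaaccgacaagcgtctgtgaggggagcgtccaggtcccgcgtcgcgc
Ube2c: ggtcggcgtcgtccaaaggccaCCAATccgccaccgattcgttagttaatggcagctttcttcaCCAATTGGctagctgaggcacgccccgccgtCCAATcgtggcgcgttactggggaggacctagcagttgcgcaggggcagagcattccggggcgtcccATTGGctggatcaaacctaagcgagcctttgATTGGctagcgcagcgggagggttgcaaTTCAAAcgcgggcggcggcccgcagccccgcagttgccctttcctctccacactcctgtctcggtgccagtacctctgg
Mcm6: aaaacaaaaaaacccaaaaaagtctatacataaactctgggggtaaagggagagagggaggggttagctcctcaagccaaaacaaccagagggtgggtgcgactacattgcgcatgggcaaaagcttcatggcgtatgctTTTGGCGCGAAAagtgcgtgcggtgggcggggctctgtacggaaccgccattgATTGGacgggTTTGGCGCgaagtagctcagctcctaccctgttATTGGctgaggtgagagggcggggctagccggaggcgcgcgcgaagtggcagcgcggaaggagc
Mcm3: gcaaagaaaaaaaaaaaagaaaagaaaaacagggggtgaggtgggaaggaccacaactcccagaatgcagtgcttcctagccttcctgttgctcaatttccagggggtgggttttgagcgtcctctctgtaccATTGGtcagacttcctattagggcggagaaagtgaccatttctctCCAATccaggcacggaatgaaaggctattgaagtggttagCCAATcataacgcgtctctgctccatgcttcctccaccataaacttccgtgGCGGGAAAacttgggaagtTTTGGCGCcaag
In Top2a and Ube2c the capitals are the CHR letters and the CCAAT box, read on either strand, with 2 and 1 matches of the former and 6 of the latter in each. In Mcm6 and Mcm3 they are 3 and 2 E2F words and 2 and 3 CCAAT boxes, with no TTTGAA.

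The D-type cyclins, which start G1 in answer to outside signals, went in different directions. Ccnd2 (chr6:127125162-127152193) had 43.2, 3.52 and 12.8 CPM in Ly6Chigh and 147, 92.2 and 169.9 CPM in Ly6Clow monocytes. Glioma monocytes had 248, 272 and 166 CPM (GFPneg) and 286, 417 and 133 CPM (GFPpos). Macrophages had 363, 236, 384 and 242 CPM (CCR2high GFPneg), 271, 248, 276 and 250.5 CPM (CCR2high GFPpos), 257, 224, 215 and 199.5 CPM (CCR2low GFPneg) and 219, 191, 211 and 112 CPM (CCR2low GFPpos). All brain replicates exceeded all Ly6Chigh replicates, and Ly6Clow replicates lay between them and reached the lowest brain values. Its log2 fold changes over Ly6Chigh monocytes were 3.54 (SE 0.52, adjusted p = 2.52e-05), 3.96 (SE 0.52, adjusted p = 3.72e-06) and 3.51 (SE 0.51, adjusted p = 1.29e-05).

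Ccnd3 (chr17:47505051-47599691) was the 1 member called lower in all 3 comparisons. It had 876, 1138 and 715 CPM in Ly6Chigh and 691, 123 and 805 CPM in Ly6Clow monocytes. Glioma monocytes had 283, 313 and 223 CPM (GFPneg) and 64.4, 111 and 289 CPM (GFPpos). Macrophages had 168, 207, 215 and 107 CPM (CCR2high GFPneg), 110.3, 213, 156 and 75.9 CPM (CCR2high GFPpos), 175, 286, 145 and 144 CPM (CCR2low GFPneg) and 143, 201, 161 and 175 CPM (CCR2low GFPpos). Apart from Ly6Clow mouse 23, the blood replicates were all above the brain replicates. The mean of 909.9 ± 214 CPM (SD, n = 3) in Ly6Chigh monocytes compared with 273 ± 45.8 (n = 3), 174 ± 49.4 (n = 4) and 187 ± 67.2 CPM (n = 4), and Ccnd3 fell by 1.73 (SE 0.51, adjusted p = 0.0228), 2.38 (SE 0.47, adjusted p = 0.00064) and 2.28 (SE 0.47, adjusted p = 0.000881) on the log2 scale. Ccnd1, nearly absent from Ly6Chigh monocytes (2.25, 0 and 0 CPM), ran from 36.5 to 155 CPM in brain, with a log2 fold change of 6.88 (SE 0.96, adjusted p = 1.1e-05) in glioma monocytes. Exons of Ccnd1, Ccnd2 and Ccnd3 overlap those of genes on the opposite strand, and the strand setting of the counting is not given in the sources used here.

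The E-type cyclins, which fire S phase, were low throughout. Ccne1 had 0.562, 0 and 0 CPM in Ly6Chigh and 0 in all Ly6Clow replicates, and 0.631 to 12.1 CPM in brain (median 4.30). Ccne2 had 0, 2.93 and 0.418 CPM in Ly6Chigh and 0.472, 2.70 and 2.37 CPM in Ly6Clow monocytes and 0.535 to 37.4 CPM in brain (median 9.89). Among the transcription factors, Foxm1, the activator of mitotic genes, had 0, 1.76 and 0 CPM in Ly6Chigh and 0 in all Ly6Clow replicates, and 0.535 to 23.9 CPM in brain (median 9.20). E2f1, an activator of S-phase genes, did not follow: it had 23.6, 32.8 and 25.3 CPM in Ly6Chigh and 4.25, 51.7 and 13.6 CPM in Ly6Clow monocytes, and 10.5 to 39.8 CPM in brain (median 24.5). Its log2 differences from Ly6Chigh monocytes were -0.66, 0.07 and -0.02 (SE 0.54 to 0.59, adjusted p = 0.573 to 0.991).

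Stmn1 (chr4:134468320-134473843), a microtubule destabilizer abundant in dividing cells, had the smallest adjusted p of all members in each of the 3 comparisons. It had 2.25, 1.76 and 1.25 CPM in Ly6Chigh and 11.3, 6.55 and 4.44 CPM in Ly6Clow monocytes. Glioma monocytes had 30.6, 23.6 and 54.2 CPM (GFPneg) and 57.9, 70.1 and 106 CPM (GFPpos). Macrophages had 60.6, 80.4, 63.7 and 98.4 CPM (CCR2high GFPneg), 123, 115, 95.8 and 103 CPM (CCR2high GFPpos), 82.1, 145, 64.8 and 127 CPM (CCR2low GFPneg) and 118, 113, 82.2 and 122 CPM (CCR2low GFPpos). The replicates did not overlap from Ly6Chigh to Ly6Clow monocytes, from these to GFPneg glioma monocytes, or from these to GFPneg macrophages. Its log2 fold changes over Ly6Chigh monocytes were 4.40 (SE 0.47, adjusted p = 1.78e-07), 5.48 (SE 0.47, adjusted p = 4.26e-09) and 5.94 (SE 0.47, adjusted p = 1.13e-09). Hmgb2, a chromatin protein, was high in all populations, with 240.4, 169 and 152 CPM in Ly6Chigh and 295, 138 and 155 CPM in Ly6Clow monocytes and 89.1 to 252 CPM in brain (median 168).

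Comparing the blood populations, no member was called higher and 10 were called lower in Ly6Chigh than in Ly6Clow monocytes, where 1.96% of all genes were called higher and 3.64% lower. At an unadjusted p under 0.05 edgeR gave 2 members higher and 15 lower, with 9.38% and 12.4% of all genes. DESeq2 called 1 higher and 14 lower, and its share over all genes is not given here. The fitted log2 difference had a median of -1.04 over S-phase members, -1.22 over mitotic members and 0.02 over all genes. Ccnd2 led with 19.8 ± 20.8 against 136 ± 39.9 CPM (SD, n = 3 each) and a log2 difference of -2.80 (SE 0.51, adjusted p = 0.00148). Stmn1 differed by -2.11 (SE 0.47, adjusted p = 0.00719), Pcna by -1.04 (SE 0.23, adjusted p = 0.0073) and Pold1, the catalytic subunit of polymerase delta, by -2.05 (SE 0.42, adjusted p = 0.00431). Rrm1, Rrm2, Mcm3, Tyms, Ccnb1 and Ccnd1 were called lower too. For 6 of the 10 (Ccnd2, Stmn1, Pcna, Pold1, Rrm1 and Mcm3) every Ly6Clow replicate lay above every Ly6Chigh replicate. The 10 were called on these same replicates, so that this adds no support to their calls. Over all genes tested, called or not, it held for 7.23%, which is no like share for a list of called genes.

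The call of Ccnd2 was the only 1 of the 10 kept in all 6 fits that leave out a replicate. Without Ly6Chigh mouse 23 only 2 members were called and without Ly6Chigh mouse 24 only 6. Without Ly6Clow mouse 23, whose kept library was the poorest, 9 were called, of which 7 were among the 10, and the calls of Rrm1, Mcm3 and Tyms were lost. Ly6Clow mouse 23 had 261 CPM of Mcm3 and 142 CPM of Rrm1, but 0 CPM of Mcm4, Mcm5, Mcm7, Cdk1 and Top2a. Without Ly6Clow mouse 24, 3 members were called higher and 8 lower in Ly6Chigh monocytes. Shares of all genes called in these fits that leave out a replicate are not given here. An edgeR fit of these 2 populations alone called no member of the 21 that passed its filter (4 at an unadjusted p under 0.05), and so did scaling to spike-ins (8 at an unadjusted p under 0.05), which shifted all genes by a median log2 difference of 1.68. Summed T and NK cell markers (all 7 counted) were at 28.7 to 188 CPM in Ly6Chigh and 904.5 to 1487 CPM in Ly6Clow monocytes, and summed B and plasma cell markers (5 of 5) at 60.8 to 112 and 244.5 to 449.6 CPM. Their part in the result was not tested.

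**Figure D4:**
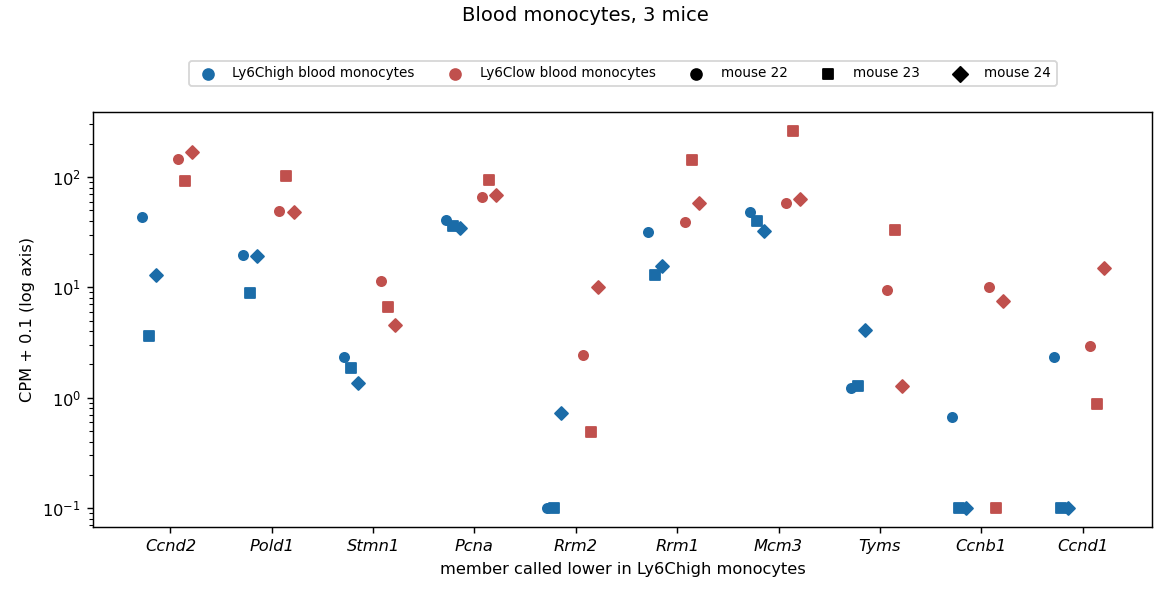
CPM (log axis, with a small constant added so that values of 0 can be drawn) of the 10 members called lower in Ly6Chigh than in Ly6Clow blood monocytes, with colours for the population and symbols for the 3 mice. Ccnd2, Pold1, Stmn1, Pcna, Rrm1 and Mcm3 did not overlap between populations, and mouse 23 held the highest Ly6Clow values of Pold1, Pcna, Rrm1, Mcm3 and Tyms.

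Within the brain, few single members were called between glioma monocytes and macrophages, at 3 and 4 replicates, although most were fitted higher in macrophages. Between GFPneg CCR2high macrophages and GFPneg glioma monocytes edgeR called no member in either direction, where 0% of all genes were called higher and 0.181% lower; 4 members were higher at an unadjusted p under 0.05, with 1.65% of all genes, and DESeq2 called 0. Between GFPneg CCR2low macrophages and GFPneg glioma monocytes it called only Stmn1 higher and none lower, with 0.147% and 1.04% of all genes. At an unadjusted p under 0.05, 10 members were higher, with 2.95% of all genes, and DESeq2 made 1 call. Stmn1 had 105 ± 37.4 CPM (n = 4) in CCR2low macrophages and 36.1 ± 16.1 CPM (n = 3) in glioma monocytes, a log2 difference of 1.54 (SE 0.35, adjusted p = 0.0269). This call was lost without glioma monocytes of mouse 22 or 24 and without CCR2low macrophages of mouse 23 or 26, and the alternatives gave it adjusted p-values between 0.000986 and 1. Without glioma monocytes of mouse 26, the helicase loader Cdc6 was called in both comparisons. Between CCR2low and CCR2high macrophages (GFPneg) edgeR called no member and gave none an unadjusted p under 0.05, where 1.56% of all genes were higher at that level, and DESeq2 called 0.

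In CCR2high macrophages 45 of 49 members (91.8%) were fitted higher than in glioma monocytes, compared with 49.5% of all genes, and the median log2 difference was 0.75 for S-phase and 0.77 for mitotic members. In CCR2low macrophages it was 45 of 49 as well, compared with 52.8% of all genes, with medians of 0.91 and 1.04. Between the macrophages, 37 members (75.5%) were fitted higher in CCR2low cells, compared with 51.2% of all genes, with medians of 0.22 and 0.40. Within mice, the S-phase mean was higher in GFPneg CCR2low than CCR2high cells in mice 23 and 26. It was slightly lower in mice 22 (5.97 against 6.02) and 24 (5.77 against 5.78). The mitotic mean was higher in CCR2low cells of mice 22, 23 and 26 and lower in mouse 24 (4.10 against 4.55). Members share the replicates and so are not independent of each other, and these comparisons share populations. Summed microglia markers (6 of 6 counted) were at 1601 to 2611 CPM in GFPneg glioma monocytes, 2053 to 4203 CPM in CCR2high and 3131 to 8053 CPM in CCR2low macrophages. In the same order, monocyte and macrophage markers were at 18990 to 22600, 11150 to 18740 and 8330 to 16050 CPM. T and NK cell markers were at 711 to 1811, 691 to 2204 and 1237 to 2539 CPM. B and plasma cell markers were at 52.9 to 328, 48.5 to 244 and 100.3 to 969 CPM. Neural and glioma lineage markers were at 17.1 to 108, 17.1 to 55.6 and 4.16 to 47.5 CPM. The part of all these markers in the differences was not tested.

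For GFP uptake, no member was called between GFPpos and GFPneg cells by edgeR in any of the 3 brain cell types. In glioma monocytes 3 members had an unadjusted p under 0.05, all higher in GFPpos cells, where 3.16% of all genes were higher at that level, and DESeq2 called Pold2 alone. In CCR2high and CCR2low macrophages no member reached an unadjusted p under 0.05, where 0.302% and 0.380% of all genes were higher at that level, and DESeq2 called 0 in both. Fitted values leaned to GFPpos cells for 45 members (91.8%) in glioma monocytes, 42 (85.7%) in CCR2high and 40 (81.6%) in CCR2low macrophages, compared with 53.7%, 51.1% and 51.7% of all genes. With scaling to the spike-ins only 9 members leaned to GFPpos cells in glioma monocytes, where the median of all genes was shifted to -1.36, and 43 lay above that median. In CCR2high macrophages it was 31 members (41 above a median of -0.27) and in CCR2low macrophages 46 (34 above a median of 0.36). With TMM the median log2 difference was 0.58 for S-phase and 0.81 for mitotic members in glioma monocytes and lay between 0.24 and 0.36 in macrophages. Tests of whether the GFP difference in glioma monocytes differed from that in CCR2high or CCR2low macrophages gave no call by edgeR (1 and 2 members at an unadjusted p under 0.05; DESeq2 was not run for them).

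Within mice and with TMM, the S-phase mean was higher in the GFPpos fraction in 11 of 11 pairs of fractions, by 0.06 to 1.19 log2 units. The mitotic mean was higher in 10 of 11 pairs, the exception being CCR2low macrophages of mouse 23 with a difference of -0.05. The 11 pairs come from 4 mice and are not independent. Summed markers of neural and glioma lineage (8 of 8 counted) were at 4.16 to 47.5 CPM in GFPneg and 48.7 to 133 CPM in GFPpos CCR2low macrophages, at 17.1 to 55.6 and 10.8 to 52.6 CPM in CCR2high macrophages, and at 17.1 to 108 and 14.3 to 196 CPM in glioma monocytes. T and NK cell markers were lower in the GFPpos fraction in 4 of 4 CCR2low pairs (1237 to 2539 CPM in GFPneg and 426 to 1195 CPM in GFPpos cells), in 4 of 4 CCR2high pairs (691 to 2204 and 518 to 1286 CPM) and in 2 of 3 pairs of glioma monocytes. In CCR2low macrophages B and plasma cell markers (100.3 to 969 and 39.2 to 424 CPM), dendritic cell markers (192 to 340.5 and 102.5 to 197 CPM), neutrophil markers (4.41 to 682 and 2.09 to 396.5 CPM) and microglia markers (3131 to 8053 and 3070 to 4954 CPM) were lower in GFPpos cells in 4 of 4 pairs as well. The other cell types did not share this direction. Neutrophil markers were higher in GFPpos cells in 4 of 4 CCR2high pairs and 2 of 3 pairs of glioma monocytes. In the same order, microglia markers were higher in 3 of 4 and 3 of 3 pairs. B and plasma cell markers were higher in 3 of 4 and 1 of 3, and dendritic cell markers in 1 of 4 and 2 of 3. The part of all these markers in the GFP differences was not tested.

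The brain replicates of one population differed by mouse, and the mitotic members did so in an ordered way. This was noticed after the values were seen and is given as a description. The mitotic mean was lowest in mouse 24 in 6 of 6 brain populations and highest in mouse 26 in 6 of 6. The S-phase mean was lowest in mouse 22 in 3 populations, in mouse 24 in 2 and in mouse 23 in 1, and highest in mouse 26 in 2. Over pairs of a member and a population, mouse 24 was lowest in 102 of 132 mitotic pairs (77.3%) but 31 of 102 S-phase pairs (30.4%), compared with 31.6% over all genes. Mouse 26 was highest in 109 mitotic pairs (82.6%) and 38 S-phase pairs (37.3%), compared with 33.7% over all genes. For 19 of 22 mitotic members mouse 26 was highest in 4 or more of the 6 populations, and for 19 mouse 24 was lowest in 4 or more. Among the 17 S-phase members these counts were 3 and 1, and no such count was made over all genes. The 6 populations of a mouse come from 1 animal and the members share replicates, so neither are independent.

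The S-phase mean exceeded the mitotic mean by a median of 1.58 log2 units in the 6 brain populations of mouse 24 and by 0.13 in those of mouse 26, with 0.80 in mouse 22 and 0.58 (4 populations) in mouse 23. The ranges of mouse 24 (1.22 to 2.11) and mouse 26 (0.07 to 0.27) did not overlap. Summed neural and glioma lineage markers were lower in mouse 24 than in mouse 26 in 6 of 6 brain populations. They were at 4.16 to 55.2 CPM in mouse 24 and 47.5 to 196 CPM in mouse 26. Endothelial markers (19.3 to 72.3 and 79.2 to 159 CPM) and erythroid markers (0 to 12.9 and 15 to 57.4 CPM) were lower in mouse 24 in 6 of 6 as well. Summed B and plasma cell markers were higher in mouse 24 in 6 of 6, at 244 to 969 CPM against 39.2 to 100.3 CPM in mouse 26. Neutrophil markers were higher in mouse 24 likewise, at 152 to 1666 and 2.09 to 147 CPM. T and NK cell markers (863 to 2204 and 426 to 1355 CPM) and microglia markers (2611 to 8053 and 1672 to 3131 CPM) were higher in mouse 24 in 6 of 6 populations too, and dendritic cell markers in 5 of 6. Whether these markers, tumor size or any other property of the mice bears on the order was not tested.

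**Figure D5:**
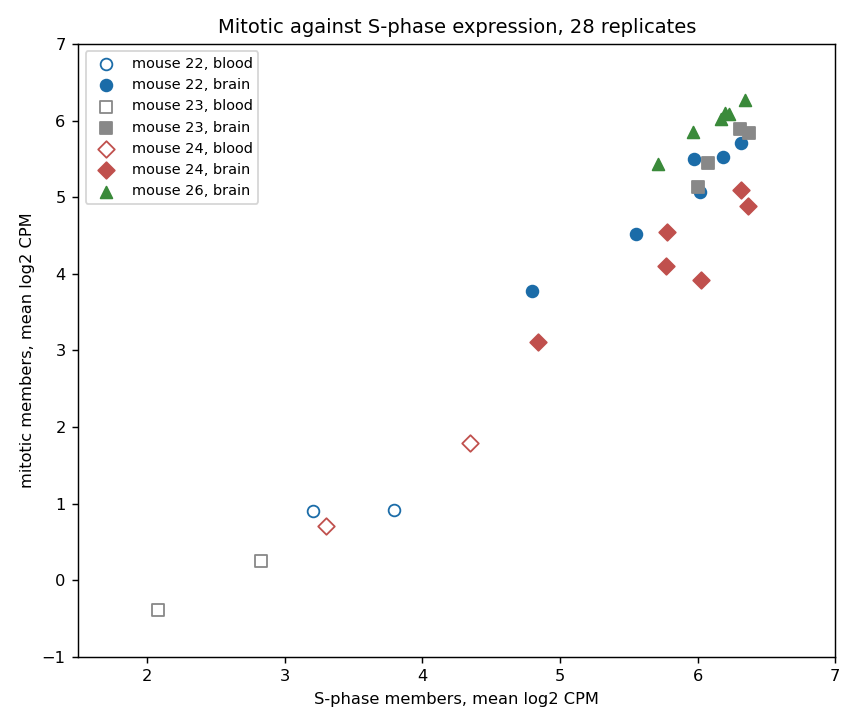
Mean log2 CPM of the 22 mitotic members against that of the 17 S-phase members in the 28 replicates, with symbols for the mice, open for blood and filled for brain. At like S-phase means, brain replicates of mouse 26 sat highest on the mitotic axis and those of mouse 24 lowest.

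Other genes of the pathway that are not members were counted in 4 lists. Among 31 further S-phase genes 11, 16 and 19 were called higher than in Ly6Chigh monocytes in GFPneg glioma monocytes, CCR2high and CCR2low macrophages, and none lower, beside 11.1%, 12.7% and 14.2% of all genes higher. Among 35 further mitotic genes 20, 26 and 28 were called higher and none lower. Of 10 G1 kinases and E2F family genes, 2, 2 and 3 were called higher and 1 lower in each comparison. Of all genes, 2.68%, 5.12% and 6.07% were called lower, and so few calls among 10 genes do not set this list apart. Myc rose from 10.4 ± 5.78 CPM (n = 3) to 60.2 ± 8.31 (n = 3), 77.2 ± 12.0 (n = 4) and 89.1 ± 19.2 CPM (n = 4), whereas E2f2 fell from 105 ± 32.1 to 21.9 ± 10.7, 10.6 ± 4.80 and 14.5 ± 6.25 CPM.

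Among 13 inhibitors and exit genes 4, 3 and 2 were called higher and 0, 1 and 1 lower, beside 11.1%, 12.7% and 14.2% of all genes higher and 2.68%, 5.12% and 6.07% lower, so that in CCR2low macrophages the shares of the list were close to those of all genes. Cdkn1a, which encodes the CDK inhibitor p21, rose with the proliferation genes, from 56.5 ± 17.5 CPM (n = 3) in Ly6Chigh monocytes to 1371 ± 307 (n = 3) in glioma monocytes, 628.5 ± 154 (n = 4) in CCR2high and 367.5 ± 138 CPM (n = 4) in CCR2low macrophages. Within brain its order was opposite to that of Stmn1: it was lower in CCR2low macrophages than in glioma monocytes by a log2 difference of -1.90 (SE 0.30, adjusted p = 0.000526 by edgeR). Cdkn2d, the inhibitor p19 of CDK4 and CDK6, was lower in CCR2high (56.0 ± 3.72 CPM, n = 4, adjusted p = 0.000304) and CCR2low macrophages (61.8 ± 13.8 CPM, n = 4, adjusted p = 0.00085) than in Ly6Chigh monocytes (148 ± 22.8 CPM, n = 3).

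Markers of other cell types also differed between Ly6Chigh monocytes and brain, and these values stand beside all comparisons with blood. The summed monocyte and macrophage markers were lower in every brain replicate (8330 to 22600 CPM) than in every Ly6Chigh replicate (26270 to 39740 CPM). Summed microglia markers were at 168 to 282 CPM in Ly6Chigh monocytes (4 of 6 counted, Sall1 and Siglech at 0) and 1601 to 8053 CPM in brain (6 of 6). Neural and glioma lineage markers were at 1.05 to 3.93 CPM in Ly6Chigh monocytes (1 of 8 counted; Sox2, Nes, Olig1, Olig2, Gfap, Ptprz1 and Cspg4 at 0) and 4.16 to 196 CPM in brain (8 of 8). T and NK cell markers were at 28.7 to 188 and 426 to 2539 CPM (7 of 7 in both), endothelial markers at 5.44 to 13.5 (1 of 4; Cdh5, Cldn5 and Kdr at 0) and 19.3 to 159 CPM (4 of 4), and dendritic cell markers at 41.0 to 102 and 102 to 563 CPM (4 of 4 in both). B and plasma cell markers were at 60.8 to 112 and 39.2 to 969 CPM (5 of 5), neutrophil markers at 1.25 to 163 and 0 to 1666 CPM (up to 7 of 7), and erythroid markers at 0 to 47.2 and 0 to 74.4 CPM (up to 4 of 4). The study separated infiltrating cells from microglia by high CD45 and high CD11b, and the brain values above are from cells sorted in this way. The part of such cells in the higher levels of proliferation genes in brain was not tested.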

How the data were processed

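The values are raw read counts per gene, deposited by the authors. Per the study's methods and the submitters' processing notes, 500 pg of RNA per sample was made into SMARTer and Nextera XT libraries with 92 ERCC spike-ins, reads were aligned with STAR to the mouse genome (GRCm38.p3), duplicates were removed with Picard 1.8.4, and HTSeq counted reads per gene. The strand setting is not given in the sources used here, so that a gene and one overlapping it on the other strand cannot be told apart (17 members share exons with another gene). Reads outside genes, 6.29 to 17.3% of a library, spike-ins and ambiguous reads were left out of library sizes. These counts were tested here in R 4.3.3 with edgeR 4.0.16 (TMM, filterByExpr, robust quasi-likelihood test, 1 fit over 8 populations without a mouse term, Benjamini-Hochberg adjustment, threshold 0.05). DESeq2 served as an alternative in version 1.42.0 (the authors used an earlier version of it). A library needed 6000 genes with at least 5 reads, 1 library of 30 failed, and passing libraries of 1 sample were summed, which left 28 replicates with a median of 2140229.5 counts. Gene positions and exon lengths came from GENCODE vM21 (GRCm38).

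Same-numbered samples came from the same mouse, so that the mouse pairs them. Deviations from the population means correlated within mice (median r = 0.14 over 86 pairs, of which 47 exceeded 0.1) more than between mice (median r = -0.03 over 256 pairs), as a description. Alternatives were DESeq2's size factors and Wald test, spike-in scaling, other filters, single libraries, a mouse block, only the populations compared, GFP states averaged, and leaving out each replicate. A fit without the 2 samples sequenced again, counts without Ly6Clow mouse 23 and directions under each scaling were added after seeing the data.

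Members and lists were chosen with earlier results of these data known. Values in every replicate were set out for the 2 members of each role with the highest mean level plus Mki67, Top2a, Pcna, Mcm2 and Ccnb1, of which 12 are given in full and the others by blood values and the range in brain. Fold changes could be named for members called in a comparison, up to the 12 with the smallest adjusted p, and 2 related genes per list. Fold changes outside that rule (of Mcm2, Mcm3, Mki67, Top2a, Ccnd3, Cdt1 and E2f1, and of Ube2c and Ccnb1 in part) were chosen after their values were seen. The scripts were tested on simulated counts.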

Additional observations from a re-analysis of the deposited data

Results flagged for a closer look

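Of 108 groups of 4 replicates, 2 held a replicate far from the others, where chance gives about 1 in 20. Pold2 had 93.5 CPM in GFPpos CCR2low macrophages of mouse 23 and 65.5 to 66.4 CPM in the other 3 mice. Hmgb2 had 252 CPM in GFPneg CCR2low macrophages of mouse 23 and 164 to 178 CPM in the other 3 mice. Neither member was called in a comparison of CCR2low with CCR2high macrophages or of GFPpos with GFPneg macrophages.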

How the results depend on the processing

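Spike-in scaling called 0 members between the blood monocytes (10 with TMM), 14, 19 and 19 over Ly6Chigh monocytes in glioma monocytes, CCR2high and CCR2low macrophages (34, 42 and 42), and 0 between CCR2low macrophages and glioma monocytes (1). It moved the median of all genes by 1.68 between the blood monocytes and turned the log2 difference of Pold1 to 0.28, Pcna to 0.85, Rrm1 to 0.24, Mcm3 to 0.90 and Tyms to 1.17, all still under that shift. With at least 10 counts required in every replicate only 7 members were tested, of which 4, 5, 6 and 6 were called in these first 4 comparisons and 0 in the last, which also gave 0 with a 1 count filter and with the first library alone. A fit of the blood populations alone called 0. DESeq2 called 1 member (Pold2) between GFPpos and GFPneg glioma monocytes. The gap between S-phase and mitotic means shrank from blood to brain by 1.77 log2 units, by 2.52 with a prior count of 0.5 and by 2.87 from summed CPM.

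Leaving out 1 replicate gave 2 to 11, 24 to 34, 32 to 41 and 35 to 43 members in the 4 comparisons with Ly6Chigh monocytes, 0 to 1 between CCR2high macrophages and glioma monocytes, 0 to 2 between CCR2low macrophages and glioma monocytes, and 0 in the others. With the mouse as a replicate block 11, 31, 42 and 41 members were called in the 4 comparisons with Ly6Chigh monocytes and 0, 1 and 0 within the brain, and the block changed the call of none of the 47 named pairs of a member and a comparison. Without the 2 samples sequenced again 10, 37, 44 and 44 were called. Of these, 7 were among the 10 called with all samples in the blood comparison (Mcm2, Mcm6 and Tk1 were added), and the 34, 42 and 42 of the others were all kept. Of 509 values for the named pairs under the alternatives, 465 kept direction and call, 39 kept the direction only and 5 reversed. Among the alternatives, shares of all genes called in the same fit are given only for spike-in scaling over Ly6Chigh monocytes. The counts of called members under the other alternatives therefore do not show whether members moved apart from all genes. The cause of these changes was not tested. Depth limits the members that were at or near 0 in blood. The single fold changes printed for members with 0 to 3 counts over the Ly6Chigh replicates are bounds or count ratios with intervals, and the fitted fold changes of Ccnd1, Top2a and Ube2c rest on 4, 6 and 6 counts.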
